A study of Gallus gallus with 20 samples.

Results

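BTG1, BTG2 and TOB1, antiproliferative genes of one family, and EGR1 and KLF4, zinc finger transcription factors, were followed in HD11 cells, a chicken macrophage-like line, after endotoxin stimulation. The members were looked up by gene name, as BTG1, BTG2, TOB1, EGR1, IER2, IER5 and KLF4. The deposited annotation held 5 of these 7 genes, among 13782 gene names, with 9 of the 38535 probe sets on the Affymetrix chicken array. BTG2 had 3 probe sets, TOB1 and EGR1 had 2 each, and BTG1 and KLF4 had 1 each, and those of one gene are told apart here by the end of their identifiers, which the plots give in full. IER2 and IER5 were not found under those names and were left out.

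Endotoxin-stimulated cells received 1 ug/ml of an endotoxin extracted from Salmonella typhimurium-798 and were harvested 1, 2, 4 or 8 hours later (hours post stimulation, hps), with 3 arrays per time. Vehicle-treated cells received vehicle only (0 ug/ml) and were harvested at the same times, with 2 arrays per time. This gave 20 arrays in 8 groups. HD11 is a single line transformed by the avian virus MC29, so that all arrays share one transformed genotype. The study's methods describe RNA pooled from 3 culture flasks and replications run on different days. Replication 3 held endotoxin-stimulated cells only.

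BTG and TOB proteins bind the CCR4-NOT complex through its deadenylase subunits, by which messenger RNA tails are shortened, and slow cell growth. BTG2 is itself an early response gene in mammals, induced by p53, growth factors and stress. EGR1 is a classic immediate early gene, transcribed within minutes of serum, growth factor or LPS signals through serum response factor and the ERK pathway, and its messenger RNA in mammals is short-lived. KLF4 is known in mammalian macrophages as a regulator of their activation state.

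The values are RMA expression values on the log2 scale, so a difference of 1 is a doubling. Signals of different probe sets depend on the probes. Ranks of signal among probe sets and sums over markers are given as description only. In what follows a difference is endotoxin minus vehicle, fitted with limma over all 20 arrays with replication as a block, and is called at a q value under 0.05 over the 38439 probe sets left without the 96 control probe sets. Of 10 macrophage markers 8 were measured (CSF1R, SPI1, CD74, CTSB, CYBB, TLR4, LYZ and CEBPB), and all 8 lay above the median signal of all probe sets. Markers of T cells, B cells, red cells and fibroblasts also gave signal, with 1 of 4, 3 of 4, 1 of 1 and 2 of 4 above that median. On the linear scale the macrophage markers summed to between 35211 and 42028 in endotoxin-stimulated arrays, against 34468 to 36952 in vehicle-treated arrays. The T cell markers summed to between 1145 and 1586 in stimulated arrays, against 1335 to 1648 in vehicle-treated arrays, and the B cell markers to between 205 and 253 in stimulated arrays, against 226 to 279 in vehicle-treated arrays. The red cell marker HBA1 lay between 104 and 175 in stimulated arrays, against 112 to 153 in vehicle-treated arrays, and the fibroblast sum between 228 and 334 in stimulated arrays, against 229 to 323 in vehicle-treated arrays. The part of any of these in the results was not tested.

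Some arrays stood apart. On the first principal component over all probe sets (26.6% of the variance), the endotoxin-stimulated arrays of replication 3 at 1 and 2 hps scored 32.1 and 33.6 and the vehicle-treated arrays at 4 hps 14.7 and 24.4, against -21.9 to 12.1 in the other 16 arrays. For actin, the control probe set at the 3' end exceeded the one at the 5' end by 0.22 to 0.35 in the vehicle-treated arrays at 4 hps, above the other 16 arrays (-0.15 to 0.114). In the replication 3 arrays it did so by 0.195 at 1 hps, above those 16, and by 0.111 at 2 hps, within their range. Calls of members, and of list genes on their brightest probe set, that were lost without these arrays are named where they are given.

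BTG2 was the one gene of the 5 with a called difference between endotoxin-stimulated and vehicle-treated cells. On 1 of its 3 probe sets it was about 2-fold higher in stimulated cells at 1 hps and remained so through 8 hps. A second probe set gave a like difference, and the third gave none. More RNA per cell and more cells with the RNA cannot be told apart in these cultures.

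On the first of these probe sets, S1_s_at, BTG2 read 9.78, 9.43 and 9.24 in endotoxin-stimulated cells of replications 1, 2 and 3 at 1 hps, against 8.39 and 8.41 in vehicle-treated cells of replications 1 and 2. At 2 hps it read 9.52, 9.20 and 9.31 with endotoxin, against 8.27 and 8.25 with vehicle. At 4 hps the values were 9.21, 9.31 and 9.26 with endotoxin, against 8.46 and 8.09 with vehicle. The stimulated arrays lay closest together at 4 hps. At 8 hps the values were 9.55, 9.43 and 9.24 with endotoxin, against 8.48 and 8.36 with vehicle. The lowest of the 12 stimulated arrays, at 9.20, was above the highest of the 8 vehicle-treated arrays, at 8.48.

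The fitted difference on this probe set was 1.14 at 1 hps (SE 0.12, 2.21-fold, limma q = 0.000525). It was 1.14 at 2 hps (2.20-fold, limma q = 0.000445), 1.04 at 4 hps (2.06-fold, limma q = 0.000377) and 1.04 at 8 hps (2.05-fold, limma q = 0.000516), with the same SE. Averaged over the 4 times it was 1.09 (95% interval 0.96 to 1.22, limma q = 1.12e-07), rank 5 by p value among all probe sets tested. Taken within replications 1 and 2, which held both treatments, the difference was positive in 8 of 8 pairs and lay between 0.75 and 1.39.

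**Figure D1:**
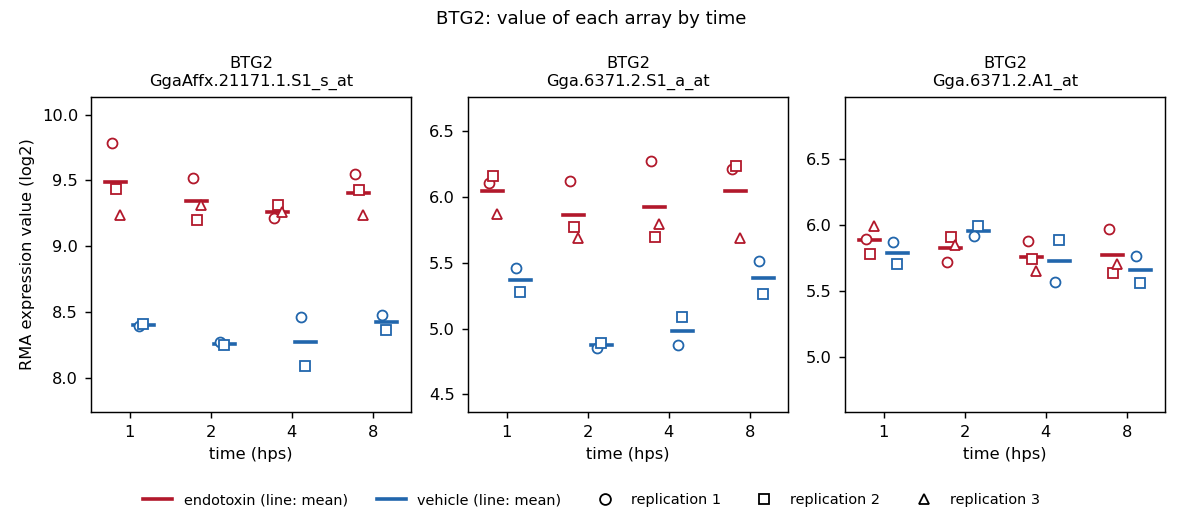
RMA expression value (log2) of each array for the 3 BTG2 probe sets against time (hps), endotoxin in red and vehicle in blue. Symbols mark the replication and bars the group mean, and each panel spans the same log2 height. The left and middle probe sets show all 12 endotoxin-stimulated arrays above all 8 vehicle-treated arrays, while the groups overlap on the right one.

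On the S1_a_at probe set, BTG2 read 6.11, 6.16 and 5.87 with endotoxin at 1 hps, against 5.46 and 5.28 with vehicle, and at 2 hps 6.12, 5.77 and 5.69 with endotoxin, against 4.86 and 4.89 with vehicle. At 4 hps it read 6.27, 5.70 and 5.80 with endotoxin, against 4.88 and 5.09 with vehicle. The vehicle-treated values were lower at 2 and 4 hps than at 1 and 8 hps. The stimulated means, 5.86 and 5.92 at 2 and 4 hps against 6.05 and 6.04 at 1 and 8 hps, lay closer together. At 8 hps it read 6.21, 6.23 and 5.69 with endotoxin, against 5.51 and 5.26 with vehicle. The difference was 0.78 at 1 hps (SE 0.14), which was not called (limma q = 0.107). It was called at 2 hps (1.09, limma q = 0.0039), at 4 hps (1.04, limma q = 0.00152) and at 8 hps (0.76, limma q = 0.0437). The mean over the 4 times was 0.92 (95% interval 0.76 to 1.08, limma q = 5.81e-06), and the difference within replications 1 and 2 was positive in 8 of 8 pairs, from 0.61 to 1.39.

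The third probe set of BTG2, A1_at, ranged from 5.64 to 5.99 over the 12 endotoxin-stimulated arrays with a median of 5.82, and from 5.56 to 5.99 over the 8 vehicle-treated arrays with a median of 5.82. The ranges overlapped almost wholly. Its differences were 0.11, -0.12, 0.04 and 0.11 at 1, 2, 4 and 8 hps, none called, and its mean difference of 0.03 had a 95% interval of -0.11 to 0.18, which leaves out the values of the other probe sets of the gene. Over the 20 arrays the first probe set correlated with the second at r = 0.90 and with the third at r = 0.05. These are descriptions across arrays that share treatments and replications. The probe sequences of the 3 sets were not used here, so which transcript or strand each one reads was not tested.

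Counted over the members, 1 of the 9 probe sets was called at 1 hps, beside 0.0364% of all probe sets tested, and 2 of 9 at 2 hps (0.0859%), at 4 hps (8.08%) and at 8 hps (0.159%). All of these were BTG2 and all were higher with endotoxin. At 4 hps, where the vehicle-treated arrays stood apart, the 2 BTG2 probe sets were also called when vehicle at 1, 2 and 8 hps was the reference, by 0.96 (SE 0.09, limma q = 7.53e-05) and 0.81 (SE 0.10, limma q = 0.000939), beside 1.35% of all probe sets. Here and below, this comparison also holds differences between times, so it does not measure the endotoxin effect alone. The mean effect over the 4 times called the same 2 of 9, beside 0.51%. The other 7 probe sets were not called for the mean effect by limma, and none of them had an unadjusted p under 0.05. All 12 stimulated arrays lay above all 8 vehicle-treated arrays at 2 of the 9 member probe sets, both of BTG2, and at 22 of the 38439 tested (0.0572%).

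**Figure D2:**
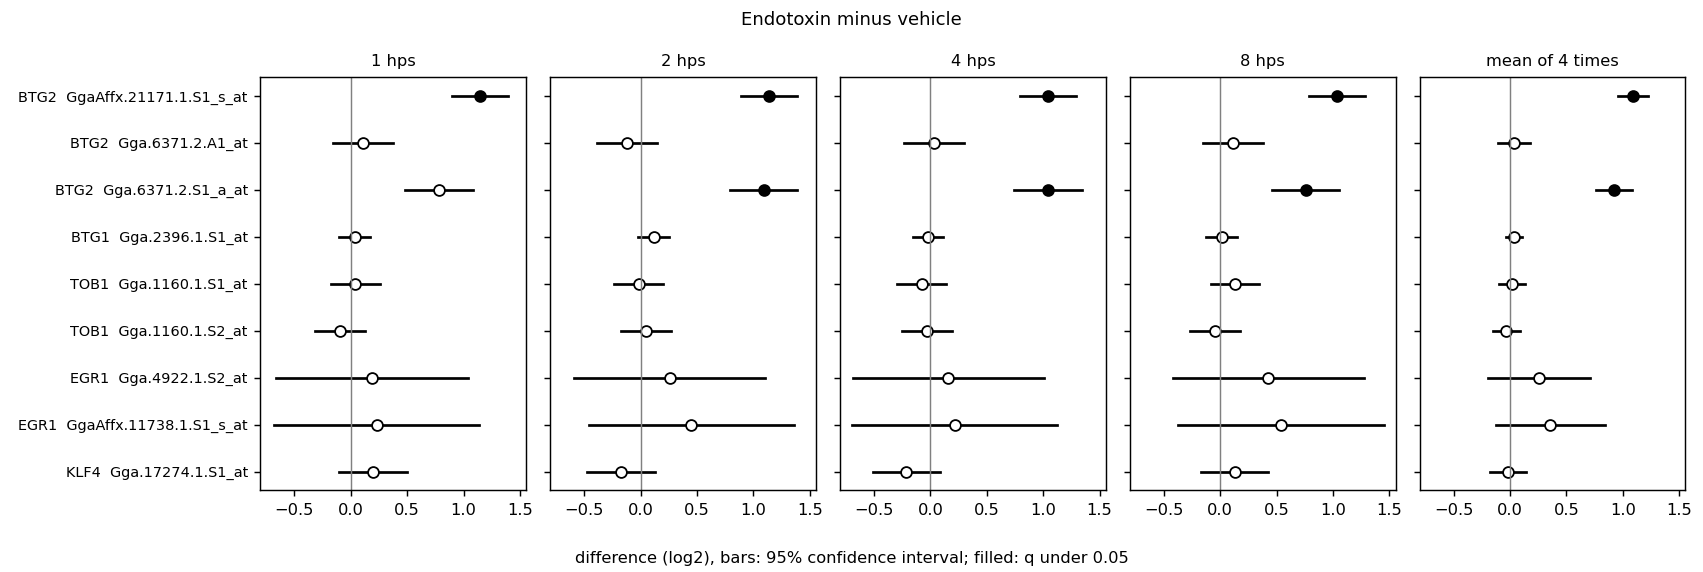
Endotoxin minus vehicle difference (log2) of the 9 member probe sets at each time (hps) and averaged over the 4 times. Points are limma estimates, bars 95% confidence intervals, and filled points have a q value under 0.05. Filled points occur for 2 BTG2 probe sets alone, and the EGR1 intervals are the widest.

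The calls at single times on these 2 BTG2 probe sets depended on which replications were included, except that of the first at 4 hps. That call was kept in all 23 fits that left out a replication or a single array, with differences of 0.90 to 1.24. The differences on both probe sets stayed positive in these fits. Without all arrays of replication 1, the differences on the first BTG2 probe set were 0.97, 1.05 and 1.01 at 1, 2 and 8 hps and were no longer called (limma q = 0.41, 0.183 and 0.139). Without replication 2 they were 1.25, 1.27 and 1.04 and were not called either (limma q = 0.49, 0.435 and 0.647). Both fits leave 1 vehicle-treated array per time. Leaving out just the vehicle-treated array of replication 1 at 1 hps gave 1.05 at 1 hps (limma q = 0.0547). On the second probe set the call at 8 hps was kept in 5 of the 23 fits, with limma q up to 0.883, and without the replication 3 arrays at 1 and 2 hps the difference was 0.78 (limma q = 0.115). Its call at 2 hps was lost without replication 1 or 2 (limma q = 0.724 and 0.124) and without the vehicle-treated array of replication 1 or of replication 2 at 2 hps (limma q = 0.225 and 0.0519). Its call at 4 hps was lost without replication 1 (0.76, limma q = 0.176). For endotoxin at 4 hps against vehicle at 1, 2 and 8 hps, the first probe set was not called without replication 2 (0.98, limma q = 0.129), nor the second without replication 1 (0.70, limma q = 0.226). The mean effect stayed called on both probe sets in each of these 23 fits, with differences of 1.05 to 1.13 on the first and 0.84 to 1.00 on the second. On the second the highest q value of these fits lay just under the threshold.

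BTG1, also antiproliferative and able to recruit the same deadenylase, was not called at any time. Its mean signal was above that of 99.6% of probe sets, and whether the array could read a change at so high a signal was not tested. Its probe set ranged from 13.16 to 13.39 with a median of 13.28 in stimulated cells, and from 13.12 to 13.38 with a median of 13.24 in vehicle-treated cells. The ranges overlapped. The differences at 1, 2, 4 and 8 hps were 0.03, 0.12, -0.02 and 0.01 (SE 0.06), and the 95% interval of the mean difference ran from -0.04 to 0.11. The whole range over the 20 arrays was 0.27, or 1.21-fold. Its residual SD of 0.03 was lower than that of all but 0.708% of probe sets, and lower than that of all but 20.7% of the 1000 nearest to it in signal.

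TOB1, a larger member of the family with the same CCR4-NOT binding, was read by 2 probe sets. S1_at ranged from 7.32 to 7.77 with a median of 7.48 in stimulated cells, and from 7.36 to 7.65 with a median of 7.54 in vehicle-treated cells. S2_at ranged from 6.67 to 7.18 with a median of 7.00 in stimulated cells, and from 6.96 to 7.17 with a median of 7.02 in vehicle-treated cells. Both overlapped between treatments, and the lowest value on the second was the replication 3 array at 1 hps, one of those that stood apart. The mean endotoxin differences were 0.02 (95% interval -0.10 to 0.13) and -0.03 (95% interval -0.15 to 0.09). The 2 probe sets did not track each other, with r = 0.08 over the 20 arrays.

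**Figure D3:**
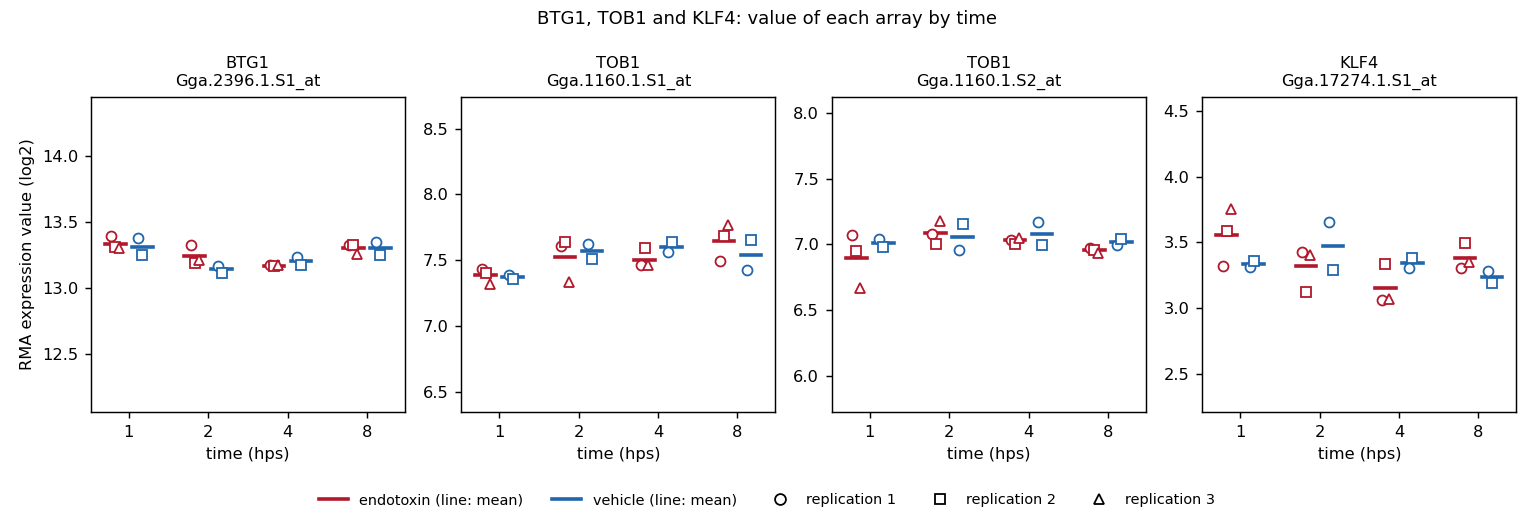
RMA expression value (log2) of each array for BTG1, TOB1 (2 probe sets) and KLF4 against time (hps), endotoxin in red and vehicle in blue. Symbols mark the replication, bars the group mean, and each panel spans the same log2 height. The treatments overlap over the series in every panel, and BTG1 spans 0.27 in all.

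EGR1 had the widest spread among these genes, and at 1, 2 and 8 hps arrays of one treatment differed more from each other than the treatments did. On the S2_at probe set the endotoxin-stimulated arrays of replications 1, 2 and 3 read 10.28, 9.27 and 8.37 at 1 hps, against 9.31 and 9.57 in vehicle-treated replications 1 and 2. At 2 hps they read 9.98, 9.07 and 8.21 with endotoxin, against 9.52 and 8.78 with vehicle. The vehicle values thus fell inside the range of the stimulated ones at both times. At 4 hps they read 9.01, 9.06 and 9.10 with endotoxin, against 9.23 and 9.22 with vehicle, so that all 5 arrays lay close together. The stimulated ones were the lower here, while on the other EGR1 probe set the treatments overlapped at 4 hps (6.35 to 6.57 against 6.55 to 6.63). At 8 hps the S2_at probe set read 9.61, 10.28 and 8.76 with endotoxin, against 9.04 and 9.85 with vehicle, a wide overlap.

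The other EGR1 probe set, S1_s_at, followed the first closely, with r = 0.99 over the 20 arrays. It read 7.66, 6.54 and 5.69 with endotoxin at 1 hps, against 6.56 and 6.95 with vehicle. It ranged from 5.62 to 7.80 over all stimulated arrays with a median of 6.53, and from 6.10 to 7.32 over all vehicle-treated arrays with a median of 6.59. Both probe sets were thus high and low in the same arrays. Their residual SDs, 0.52 and 0.56 after treatment, time and replication were taken out, were larger than those of 99.96% and 99.98% of probe sets and were the largest among the 1000 probe sets nearest to each in signal. From its lowest to its highest array EGR1 spanned 4.20-fold on the first probe set and 4.53-fold on the second.

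**Figure D4:**
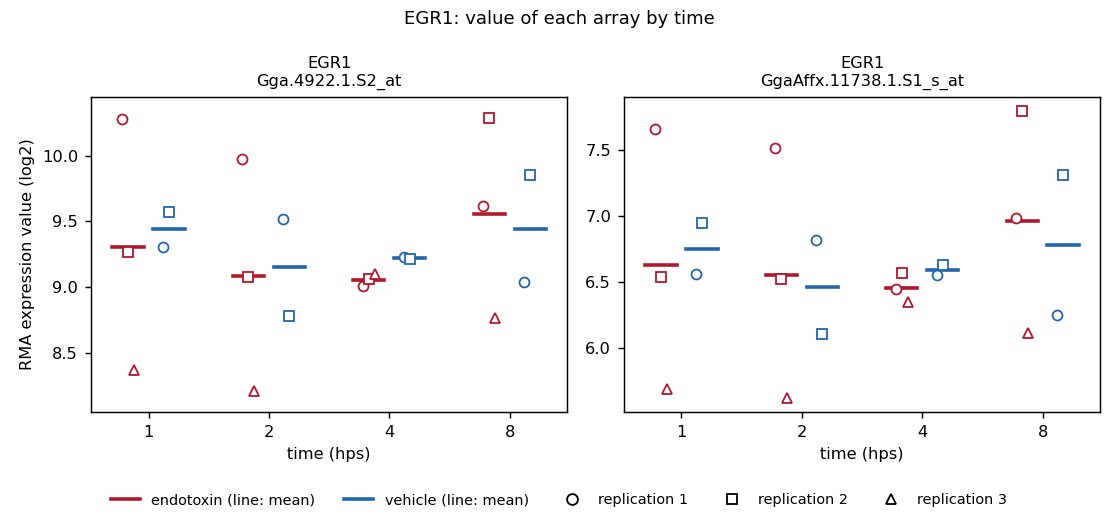
RMA expression value (log2) of each array for the 2 EGR1 probe sets against time (hps), endotoxin in red and vehicle in blue. Symbols mark the replication and bars the group mean, and both panels span the same log2 height. At 1 and 2 hps replication 1 is the highest and replication 3 the lowest of the stimulated arrays, while at 4 hps all arrays lie close together.

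No endotoxin effect on EGR1 was called at any time. On the first probe set the differences were 0.19, 0.26, 0.16 and 0.43 at 1, 2, 4 and 8 hps (SE 0.40), and the mean difference was 0.26 with a 95% interval of -0.20 to 0.71. On the second the mean difference was 0.36 with a 95% interval of -0.13 to 0.84. A 2-fold change at a single time was within the intervals, which reached 1.03 at 1 hps and 1.27 at 8 hps on the first probe set. The sign was not settled, since the fit without the replication block gave a mean difference of -0.06 on the first probe set and 0.00347 on the second, with limma q = 0.917 and 0.933. Single times were no clearer. On the first probe set the plain means were 9.31, 9.09, 9.06 and 9.55 with endotoxin, against 9.44, 9.15, 9.22 and 9.45 with vehicle. Endotoxin was thus lower by plain means at 1, 2 and 4 hps, where the fitted differences were positive, and higher at 8 hps. Within replications 1 and 2 the first probe set differed by 0.97 and -0.30 at 1 hps, by 0.46 and 0.29 at 2 hps, by -0.21 and -0.15 at 4 hps and by 0.58 and 0.43 at 8 hps.

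The lowest EGR1 arrays were those of endotoxin-stimulated replication 3 at 1 and 2 hps, which also scored highest on the first principal component. The stimulated arrays of replications 1, 2 and 3 averaged 9.72, 9.42 and 8.61 over the 4 times on the first probe set. Without the 2 low arrays the endotoxin difference was 0.33 at 1 hps and 0.37 at 2 hps, again not called (limma q = 1.00 at both times). Replication 3 has no vehicle-treated cells, so its EGR1 difference with endotoxin could not be measured.

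KLF4 gave a low signal. Its probe set ranged from 3.06 to 3.75 with a median of 3.35 in stimulated cells, and from 3.19 to 3.65 with a median of 3.31 in vehicle-treated cells, and its mean was above that of only 12.2% of probe sets. The differences were 0.20, -0.18, -0.21 and 0.13 at 1, 2, 4 and 8 hps (SE 0.14), none called, and the 95% interval of their mean ran from -0.18 to 0.14. At signals this low, whether KLF4 was expressed was not tested. The deposited annotation names this probe set KLF4, but no current gene name was found for its reference transcript.

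Culture time was then separated from endotoxin by following each treatment over its own times. Within vehicle-treated cells 1 of the 9 member probe sets changed over the 4 times (F test in limma), beside 7.55% of all probe sets. This was the second BTG2 probe set (limma q = 0.0437), whose vehicle means were 5.37, 4.87, 4.98 and 5.39 at 1, 2, 4 and 8 hps. The dip was -0.49 at 2 against 1 hps (SE 0.15, limma q = 0.31) and -0.39 at 4 against 1 hps (limma q = 0.119), neither called by itself. Without the vehicle-treated arrays at 4 hps the change was no longer called (limma q = 0.0717), when 0 of 9 members and 2.24% of all probe sets passed, with 2 of 9 at an unadjusted p under 0.05. It was also lost without any 1 of the vehicle-treated arrays other than that of replication 2 at 4 hps, without any 1 of the replications, and without the stimulated array of replication 1 at 8 hps or of replication 3 at 1 or 2 hps, each leaving 0 of 9 called. On the first BTG2 probe set the vehicle means were 8.40, 8.26, 8.28 and 8.42 and the change was not called (limma q = 0.336).

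In vehicle-treated cells at 8 against 1 hps 0 of 9 member probe sets were called by limma, with 0 at an unadjusted p under 0.05, beside 1.81% of all probe sets, and the Benjamini-Hochberg adjustment also gave 0. The differences were 0.02, 0.02 and -0.13 for the S1_s_at, S1_a_at and A1_at probe sets of BTG2, -0.01 for BTG1, 0.17 and 0.01 for TOB1, 0.01 and 0.03 for EGR1 and -0.10 for KLF4. At 2 and 4 against 1 hps in vehicle-treated cells 0 of 9 were called, with 2 and 1 at an unadjusted p under 0.05, beside 0.104% and 4.31% of all probe sets.

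Within endotoxin-stimulated cells 0 of the 9 changed over time in limma, beside 10.9% of all probe sets, and 2 had an unadjusted p under 0.05, KLF4 (limma q = 0.0957) and BTG1 (limma q = 0.107). In time order, KLF4 averaged 3.55, 3.32, 3.15 and 3.38 in stimulated cells, and was -0.40 at 4 against 1 hps (SE 0.12, limma q = 0.0695), or -0.27 (limma q = 0.406) without the replication 3 arrays at 1 and 2 hps. BTG1 averaged 13.33, 13.24, 13.17 and 13.30 in stimulated cells and 13.31, 13.14, 13.20 and 13.30 in vehicle-treated cells, with the lower values of both treatments at 2 and 4 hps. TOB1 on its first probe set was 0.26 at 8 against 1 hps in stimulated cells (SE 0.09, limma q = 0.0761), or 0.21 (limma q = 0.291) without the same 2 arrays. At 2, 4 and 8 against 1 hps in stimulated cells 0 of 9 were called, with 0, 3 and 1 at an unadjusted p under 0.05, beside 0.265%, 4.22% and 6.51% of all probe sets. For the later pairs of times (4 against 2, 8 against 2 and 8 against 4 hps) 0 of 9 were called in either treatment by limma, with 0, 0 and 1 at an unadjusted p under 0.05 in stimulated cells (background 1.49%, 6.38% and 1.07%) and 0, 3 and 1 in vehicle-treated cells (background 0.159%, 1.48% and 5.2%).

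Whether the endotoxin effect itself changed with time was tested as the interaction of dose and time. In limma 0 of the 9 were called, with 0 at an unadjusted p under 0.05, and 0% of all probe sets were. The lowest q value was that of KLF4, at 0.436. For BTG2 it was 0.748 on the first probe set, where the effects at the 4 times lay between 1.04 and 1.14, and 0.526 on the second, where they lay between 0.76 and 1.09. The order of the group means of BTG2 on the first probe set was endotoxin at 1, 8, 2 and 4 hps, from 9.49 to 9.26, and then vehicle at 8, 1, 4 and 2 hps, from 8.42 to 8.26. Neighbouring groups of one treatment differed by at most 0.12, less than the largest SD among them, and the step between the treatments was 0.84. On the second probe set that step was 0.47, and the vehicle groups fell into 2 pairs 0.39 apart, 8 and 1 hps above 4 and 2 hps.

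The genes whose pattern was most like each member, read on its brightest probe set, were taken as the 3 with the highest correlation over the 20 arrays, after each replication's mean was taken out. For BTG2 these were CCL4, a chemokine (r = 0.99), NFKBIA, the NF-kB inhibitor (r = 0.98), and IL8, a chemokine (r = 0.96). For EGR1 they were RGS1, a regulator of G-protein signalling (r = 0.83), DUSP1, a MAP kinase phosphatase and itself an immediate early gene (r = 0.82), and MKLN1 (r = 0.79). For BTG1 they were CD47, NDRG1 and MLLT6 (r = 0.89, 0.88 and 0.87), for the S1_at probe set of TOB1, which the other did not track, RCJMB04_8f10, BLZF1 and LOC429716 (r = 0.83, 0.82 and 0.82), and for KLF4 B3GALT5, CLIP2 and EYA1 (r = 0.78, 0.76 and 0.76). These are the highest values of a search over all named probe sets, and the arrays share treatment, time and replication. Replication 3 held stimulated cells only, so taking its mean out also took out its difference from vehicle-treated cells.

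DUSP1 spread in the same arrays as EGR1. It read 10.93, 9.96 and 9.88 with endotoxin at 1 hps, against 10.02 and 10.09 with vehicle, and at 2 hps 10.26, 9.81 and 9.58 with endotoxin, against 9.84 and 9.75 with vehicle. Its residual SD of 0.27 was larger than that of 98.2% of probe sets. FOS, an AP-1 subunit and the immediate early gene most often named beside EGR1, gave a low signal of 3.85 to 4.50 in stimulated cells and 4.02 to 4.35 in vehicle-treated cells. Its correlation with EGR1, again with each replication's mean taken out, was r = 0.78.

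Of 21 other gene names looked up around the BTG/TOB family and the CCR4-NOT deadenylase, PAN3 and PABPC4 included, 13 were measured. At 1, 2 and 8 hps 0 of 13 were called by limma, with 0 at an unadjusted p under 0.05, where 0.0364%, 0.0859% and 0.159% of all probe sets were. The medians of their differences were 0.00, -0.06 and 0.01, beside 0.00 for all probe sets at each time. At 4 hps CNOT4, a ubiquitin ligase subunit (0.43, limma q = 0.0405), and RQCD1, a conserved core subunit (0.39, limma q = 0.0256), were called higher with endotoxin, 2 of 13 beside 8.08% of all probe sets, and the median was 0.10 beside -0.02. Counting any probe set of a gene added CNOT1. Without the replication 3 arrays at 1 and 2 hps 0 of 13 were called at 4 hps (limma q = 0.0809 and 0.0562 for CNOT4 and RQCD1), beside 4.27% of all probe sets. Unadjusted, 3 had a p under 0.05. With vehicle at 1, 2 and 8 hps as the reference, 0 of 13 were called, beside 1.35%, with 3 at an unadjusted p under 0.05.

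Of 45 other immediate early genes 29 were measured. For the mean effect 3 of 29 were called, beside 0.51% of all probe sets, and all were higher with endotoxin, JUN, an AP-1 subunit (0.47, SE 0.06, limma q = 0.000789), ATF3, a stress-induced repressor (0.46, SE 0.09, limma q = 0.0344), and PTGS2, the inducible cyclooxygenase (0.52, SE 0.09, limma q = 0.00926). Without the replication 3 arrays at 1 and 2 hps ATF3 was no longer called (0.46, limma q = 0.0508), while JUN and PTGS2 were, and KLF2 was called lower (-0.27, limma q = 0.0365). That made 2 of 29 higher and 1 lower, beside 0.447% of all probe sets. Over 1, 2 and 8 hps without the vehicle-treated arrays at 4 hps, JUN and PTGS2 were called, 2 of 29 beside 0.268% of all probe sets. ATF3 was not (0.42, limma q = 0.314). Over the same times, leaving out the replication 3 arrays at 1 and 2 hps instead called JUN but not PTGS2, 1 of 29 beside 0.229% of all probe sets. At 1 hps JUN alone was called (0.75, limma q = 0.03), 1 of 29 beside 0.0364% of all probe sets, with values of 11.00, 10.58 and 10.21 in stimulated cells, against 10.22 and 9.66 in vehicle-treated cells, which overlap by one array. The stimulated array in that overlap was replication 3, and without the replication 3 arrays at 1 and 2 hps JUN was also called (0.85, limma q = 0.00941). It was not called when the vehicle-treated arrays at 4 hps were left out (0.75, limma q = 0.0526). At 2 and 8 hps 0 of 29 were called by limma, with 1 and 5 at an unadjusted p under 0.05, beside 0.0859% and 0.159% of all probe sets. None of the 29 had all its stimulated arrays above all its vehicle-treated arrays, a pattern that 0.0572% of all probe sets showed. The medians of the differences at 1, 2, 4 and 8 hps were 0.04, 0.02, 0.10 and 0.01, beside 0.00, 0.00, -0.02 and 0.00 for all probe sets.

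At 4 hps JUN, ATF3, KLF5, DUSP4 and MCL1 were called higher and MYCN lower, 6 of 29 beside 8.08% of all probe sets. Counting any probe set of a gene rather than the brightest gave 10 genes higher, adding KLF10, RHOB, PLK3, PLK2 and DUSP5. Without the replication 3 arrays at 1 and 2 hps ATF3 and MCL1 were no longer called (limma q = 0.079 and 0.0531) and KLF2 was called lower (-0.39, limma q = 0.0387). With vehicle at 1, 2 and 8 hps as the reference none of these 6 was called, and KLF2 (-0.43, limma q = 0.0436) and RHOB (-0.35, limma q = 0.0168) were lower instead, 2 of 29 beside 1.35% of all probe sets. These 2 differences also hold differences between times. In vehicle alone at 4 against 1 hps, without the replication 3 arrays at 1 and 2 hps, RHOB was called lower and KLF2 was not. That comparison called 6 of 29 lower, beside 3.32% of all probe sets. Some immediate early genes also changed over time without endotoxin. In vehicle-treated cells ATF3 (-0.79, limma q = 0.0363), SGK1, a serum-induced kinase (-0.57, limma q = 0.0221), and PLK2 (-0.70, limma q = 0.0184) were lower at 8 than at 1 hps. ATF3 averaged 6.97 at 8 hps against 7.76 at 1 hps in vehicle-treated cells, and its change was not called without the replication 3 arrays at 1 and 2 hps (-0.79, limma q = 0.0504). These 3 of 29 stood beside 1.81% of all probe sets. At 8 against 2 hps in vehicle-treated cells JUN, KLF6 and PTGS2 were called higher without the vehicle arrays at 4 hps, 3 of 29 beside 1.51%. The same 3 were called without the replication 3 arrays at 1 and 2 hps, beside 1.13%. In vehicle-treated replications 1 and 2 PTGS2 read 7.20 and 7.07 at 1 hps, 6.29 and 6.42 at 2 hps and 7.42 and 7.13 at 8 hps.

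Of 21 serum response regulators and EGR co-repressors 17 were measured. At 1, 2 and 8 hps 0 of 17 were called by limma, with 1, 2 and 1 at an unadjusted p under 0.05. The shares of all probe sets called at these times were 0.0364%, 0.0859% and 0.159%, and the list medians were 0.01, 0.04 and 0.02. At 4 hps CREB1, ETS2 and RPS6KA5 were called higher with endotoxin, by 0.58, 0.81 and 0.63 (limma q = 0.0064, 0.00547 and 0.034), 3 of 17 beside 8.08% of all probe sets. Without the replication 3 arrays at 1 and 2 hps RPS6KA5 was no longer called (limma q = 0.0617). CREB1, the cyclic AMP response factor, was also called with vehicle at 1, 2 and 8 hps as the reference (0.33, limma q = 0.0366). This was 1 of 17 beside 1.35% of all probe sets, and ETS2 and RPS6KA5 were not called. CREB1 was lost too without the replication 3 arrays as well (0.31, limma q = 0.0971). Without those arrays ETS2 and RPS6KA5 were called lower in vehicle at 4 hps than in vehicle at 1, 2 and 8 hps, 2 of 17 beside 4.47%. The same comparison called CNOT4 and RQCD1 lower, 2 of 13 on their list. Among the other immediate early genes it called ATF3, KLF5, KLF10, RHOB and GADD45A lower, 5 of 29, and 0 of the 9 member probe sets were called.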

How the data were processed

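Expression was measured on 20 Affymetrix chicken arrays. The authors deposited RMA-normalized log2 expression values, with RMA and limma named in the submitters' processing notes. The deposited annotation table also holds the authors' fold changes and q values of their own comparisons, which were not used. The number of arrays limits the precision.

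Probe sets were chosen by the gene column of that table. A linear model with 8 groups of treatment and time and replication as a block (the study's methods) was fitted with limma 3.58.1 in R 4.3.3 to the 38439 probe sets without control probe sets, leaving 10 residual degrees of freedom. The q values rest on a histogram estimate of true nulls with 20 bins, and a q under 0.05 was called. The fit was tested on simulated data. Replication numbers come from the labels, which call the control cells untreated. The differences between replications 1 and 2 correlated little between endotoxin and vehicle arrays, with r = -0.14, 0.24, 0.07 and 0.11 at 1, 2, 4 and 8 hps. P values measure the spread between these pooled cultures.

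Lists were counted by the brightest probe set of each gene, and every member probe set was named. The members and lists were chosen with earlier results of these data known. Alternatives were no block, Benjamini-Hochberg adjustment, replication as a random effect, trend and robust options, array weights, cyclic loess, ribosomal protein centring, the 19219 brightest probe sets alone, arrays of a single time, and each replication or array left out. Chosen after seeing the data were fits, for members and lists, without the endotoxin arrays of replication 3 at 1 and 2 hps, and, for comparisons other than 4 hps, without the vehicle arrays at 4 hps.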

Additional observations from a re-analysis of the deposited data

How the results depend on the processing

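The 2 BTG2 probe sets called for the mean endotoxin effect were called under every alternative that tested it. The interaction called 0 member probe sets under every alternative that tested it. Fits on arrays of a single time tested neither. Without the vehicle arrays at 4 hps both covered 1, 2 and 8 hps only, and the brightest probe sets alone left out KLF4. Called member probe sets changed as follows, from 1, 2, 2 and 2 at 1, 2, 4 and 8 hps and 1 for time in vehicle. Without the replication block 1 was called at 2 hps, 1 at 8 hps and 0 for time in vehicle. With replication as a random effect, with cyclic loess and without the replication 3 arrays at 1 and 2 hps, each gave 1 at 8 hps and 0 for time in vehicle. Benjamini-Hochberg adjustment and leaving out the vehicle arrays at 4 hps each gave 0 for time in vehicle. Trend and robust options gave 2 at 1 hps, 2 for time in vehicle and 1 for time in endotoxin (BTG1), ribosomal protein centring gave 2 at 1 hps, and the brightest probe sets alone gave 2 for time in vehicle and 2 for time in endotoxin (BTG1 and TOB1). Arrays of a single time gave 0, 1, 0 and 1 at 1, 2, 4 and 8 hps, with fewer samples. The cause of the other changes was not tested.

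With each replication or array left out, the counts ranged from 0 to 2 at 1, 2 and 8 hps, from 1 to 2 at 4 hps, from 1 to 2 for endotoxin at 4 hps against the other vehicle times, from 0 to 1 for time in vehicle and from 0 to 1 for time in endotoxin. They stayed at 2 for the mean effect and at 0 for the interaction and for vehicle at 8 against 1 hps. The counts at 1 hps were 0 without replicate 1, replicate 2 or the vehicle 1 hps array of replicate 1, and those at 2 and 8 hps were 0 without replicate 1 or 2. No called value of a single probe set changed sign, 42 lost and 3 gained a call, and 131 uncalled values changed sign while uncalled.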
